A study of Arabidopsis thaliana with 16 samples.

Results

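The comparison described here asks which transcripts differed after heat when HSFA2 was supplied to Arabidopsis thaliana seedlings that lacked the 4 HSFA1 heat shock factors. It set the 2 arrays of heated A2QK seedlings against the 2 arrays of heated QK seedlings, which are 4 of the 16 arrays of the series, chosen by their labels alone. QK lacks HSFA1A, HSFA1B, HSFA1D and HSFA1E and is in a mixed Col-0 and Ws background. A2QK is a single line, A2QK-10, in which the constitutive CaMV 35S promoter drives HSFA2 in QK, so A2QK and QK lack the same 4 genes. The other groups were the HSFA2 knockout hsfa2 and wild type (WT), both Col-0. All were whole seedlings, 7 days old, grown at 22 °C, and heat meant a water bath at 37 °C for 1 h. Each of the 4 genotypes had 2 heated and 2 unheated arrays.

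Heat shock factors are transcription factors that bind heat shock elements in promoters and switch on genes for chaperones, proteins that keep others folded or refold them at high temperature. In Arabidopsis the HSFA1 proteins are present before heat and start the response, and HSFA2 is itself induced by heat and is known for prolonging it. Small heat shock proteins hold unfolding proteins, and HSP70, HSP90 and their co-chaperones then refold or clear them.

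Values are log2 expression per Affymetrix probe set as the submitters deposited them, so a difference of 1 is 2-fold on this scale. No detection calls were used here, so a difference from values near the bottom of the scale is one of log2 RMA values and not a measured ratio of transcripts. The values ran between 1.58 and 13.4, the array medians between 4.87 and 5.20, and the replicate correlations between 0.959 and 0.994. The probe sets for HSFA2 and the HSFA1 genes were not identified by name here, so the genotype labels were not checked on the arrays. The arrays did not spread equally. The 2 heated A2QK arrays differed more than 2-fold at 43 probe sets (0.189%), against 1346 (5.92%) for the 2 heated QK arrays, and the corresponding shares were 1.97% for heated hsfa2 and 6.77% for heated WT. Nothing in the labels tells if replicate arrays stem from different cultures, and the p-values therefore reflect no more than array-to-array spread. In whole seedlings, fewer cells of a type and less RNA per cell cannot be told apart.

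After heat, 2803 of 22746 probe sets (12.3%) differed between A2QK and QK at an adjusted p under 0.05. Of these, 1410 (6.20%) were higher and 1393 (6.12%) lower in A2QK, and 891 (3.92%) and 724 (3.18%) of them also differed at least 2-fold. The differences ran from -4.42 to 8.82 on the log2 scale, with a median of -0.02. Without the second heated A2QK array the total was 1334, without the first 1463, and without the first heated QK array 1773, and without the second heated QK array 927 were lower. Both A2QK arrays lay beyond both QK arrays at 13080 probe sets (57.5%), and 2 arrays against 2 cannot give an exact two-sided permutation p below 0.333, so calls rest on the fit over all 16 arrays.

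Genes for small heat shock proteins stood far higher in heated A2QK than in heated QK. Of 10 measured members of an 18-gene list, 8 were higher, against 6.20% of all probe sets, and none was lower. The median difference was 5.74, against -0.02 over all probe sets. HSP26.5 (AT1G52560), of the mitochondrial type, had values of 12.40 and 12.24 in heated A2QK, against 2.89 and 6.47 in heated QK. That is a log2 difference of 7.64 ± 0.79 (SE, n = 2 each, adjusted p = 8.04e-05). Both A2QK arrays were close together and well above QK, while the QK arrays lay far apart from each other. HSP23.5 (AT5G51440), also mitochondrial, had 11.02 and 10.87 in heated A2QK and 2.45 and 6.37 in heated QK (difference 6.53 ± 0.88, adjusted p = 0.00055).

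The cytosolic class I protein HSP17.6C (AT1G53540) had 12.96 and 13.02 in heated A2QK, against 3.54 and 9.50 in heated QK. The difference was 6.47 ± 1.26 (adjusted p = 0.00594), with the lower QK array near the bottom of the scale. HSP17.6B (AT2G29500), of the same class, had 12.31 and 12.16 in heated A2QK and 5.19 and 8.79 in heated QK (5.25 ± 0.80, adjusted p = 0.0012). HSP22 (AT4G10250), which works in the endoplasmic reticulum, had 12.16 in both heated A2QK arrays, against 3.63 and 8.10 in heated QK (6.29 ± 0.95, adjusted p = 0.00117). HSP15.7 (AT5G37670), the peroxisomal member, had 11.32 and 11.07 in heated A2QK and 3.56 and 6.57 in heated QK (6.13 ± 0.66, adjusted p = 0.000111). The higher members thus covered proteins of the cytosol, mitochondrion, endoplasmic reticulum and peroxisome. HSP17.4III (AT1G54050), of cytosolic class III, had 11.79 and 11.59 in heated A2QK, against 4.41 and 8.28 in heated QK (5.34 ± 0.94, adjusted p = 0.00327), and HSP18.5 (AT2G19310) had the smallest called difference of the family, 4.03 ± 0.38 (adjusted p = 4.22e-05).

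The members that did not pass the test were HSP14.7 (AT5G47600), with 4.05 and 4.22 in heated A2QK and 3.57 and 3.67 in heated QK (adjusted p = 0.127), and HSP15.4 (AT4G21870), with 8.99 and 8.89 in heated A2QK and 9.23 and 9.09 in heated QK (adjusted p = 0.806). Heat raised the other 8 in WT, where 753 (3.31%) of all probe sets rose and 1212 (5.33%) fell, and in WT these 2 had an adjusted p of 0.992 and 0.963.

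The size of these differences depended on which QK array was used. In all 8 higher members the first heated QK array was below the second, and over the 10 measured members the gap had a median of -3.58, against an absolute gap of 0.161 between the A2QK arrays. Without the first QK array the list median was 3.47, and without the second 7.46, and 8 members were higher in each case. Fitted on the 4 heated arrays alone, 4 of the 10 members were called, and HSP17.6C (adjusted p = 0.11), HSP22 (0.0641), HSP17.4III (0.0672) and HSP17.6B (0.0594) were not.

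**Figure D1:**
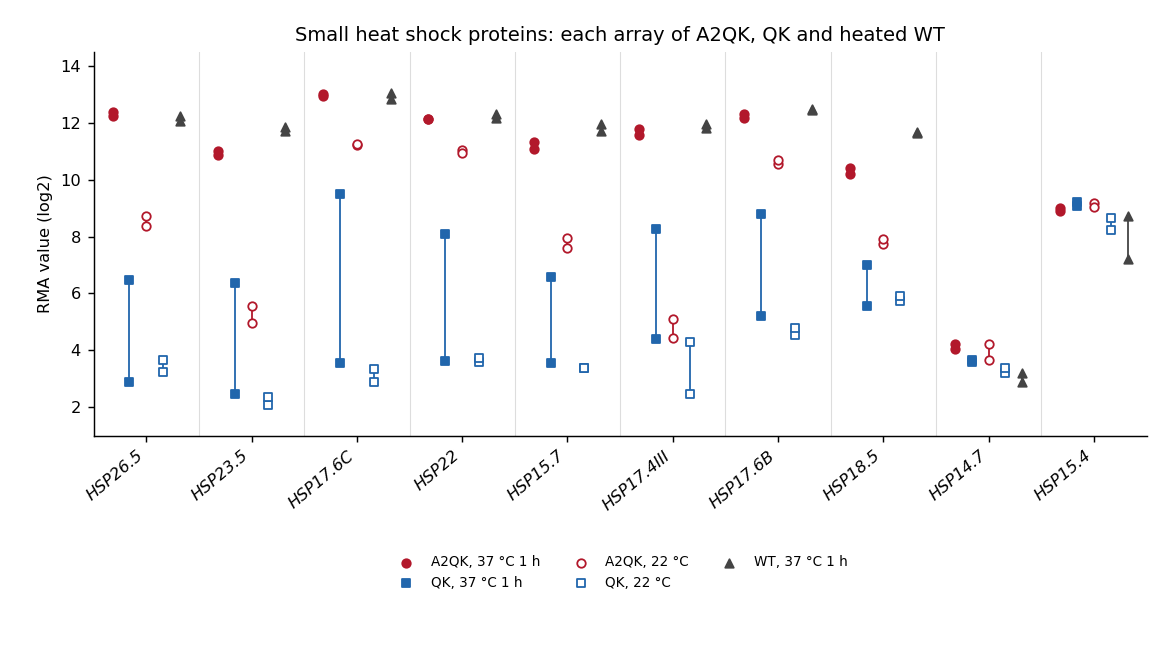
Log2 expression of the 10 measured small heat shock protein genes on each array, with A2QK and QK at 37 °C, A2QK and QK at 22 °C, and WT at 37 °C, 1 point per array. In 8 genes the heated A2QK points lie together and above both heated QK points, and HSP14.7 and HSP15.4 show no such gap.

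For several of these genes the heated A2QK arrays had values near those of heated WT. HSP26.5 had 12.24 and 12.07 in heated WT, HSP17.6C had 12.84 and 13.04, and HSP22 had 12.18 and 12.33, each within 0.4 of the heated A2QK arrays. HSP18.5 lay lower in heated A2QK, at 10.42 and 10.21, against 11.64 and 11.68 in heated WT. No measured small heat shock protein gene was called between heated hsfa2 and heated WT by limma, and 0 of 10 had an unadjusted p under 0.05.

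A2QK already differed from QK in this family without heat. At 22 °C, 6 of the 10 members were higher in A2QK, where 1176 (5.17%) of all probe sets were higher and 892 (3.92%) lower. HSP17.6C had 11.22 and 11.25 in A2QK, against 3.33 and 2.88 in QK, a difference of 8.13 ± 1.26 (adjusted p = 0.00284). HSP22 had 11.04 and 10.93 in A2QK and 3.60 and 3.74 in QK (7.31 ± 0.95, adjusted p = 0.00113). By contrast, HSP17.4III had 4.45 and 5.10 in A2QK and 2.45 and 4.30 in QK, a 22 °C difference of 1.40 that was not called (adjusted p = 0.445). Whether the difference itself differed between 37 °C and 22 °C was tested as a contrast of both differences, and no small heat shock protein gene passed that limma test, although 4 of 10 had an unadjusted p under 0.05. The standard errors were large: for HSP17.4III the contrast was 3.94 ± 1.33 (adjusted p = 0.205) and for HSP23.5 it was 3.49 ± 1.24 (adjusted p = 0.232).

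Co-chaperones were also higher after heat: 8 of 13 measured members of a 21-gene list, against 6.20% of all probe sets. None was lower, and the median difference was 2.12. ROF2 (AT5G48570), a peptidyl-prolyl isomerase that binds HSP90, had 11.89 and 11.67 in heated A2QK, against 4.70 and 7.36 in heated QK (5.75 ± 0.81, adjusted p = 0.000718). HOP3 (AT4G12400), an adaptor that joins HSP70 to HSP90, had 10.45 and 10.28 in heated A2QK and 3.39 and 6.20 in heated QK (5.57 ± 0.75, adjusted p = 0.000536). As in the small heat shock proteins, the spread lay in the QK arrays. AT1G71000, a DnaJ-domain protein of the kind that delivers clients to HSP70, had 9.61 and 9.03 in heated A2QK, against 2.96 and 4.77 in heated QK (5.45 ± 0.45, adjusted p = 1.43e-05), and the DnaJ-like AT2G20560 differed by 5.16 ± 0.53 (adjusted p = 7.15e-05).

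Differences were smaller in other co-chaperones. FES1A (AT3G09350), a nucleotide exchange factor of HSP70, had 10.15 and 10.23 in heated A2QK and 5.48 and 7.26 in heated QK (3.82 ± 0.53, adjusted p = 0.00064). HOP2 (AT1G62740) had 9.83 and 9.57 in heated A2QK, against 7.56 and 7.73 in heated QK (2.06 ± 0.15, adjusted p = 4.79e-06). The AHA1-domain gene AT3G12050, related to activators of the HSP90 ATPase, had 9.88 and 9.82 in heated A2QK and 7.39 and 8.06 in heated QK (2.12 ± 0.27, adjusted p = 0.000399). In none of these did the groups overlap, a property that 57.5% of all probe sets had.

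SGT1A (AT4G23570), an HSP90 partner known from plant disease resistance, changed sign with temperature. It had 7.92 and 7.87 in heated A2QK, against 6.35 and 6.45 in heated QK, a difference of 1.50 ± 0.22 (adjusted p = 0.000896). At 22 °C it had 4.77 and 4.67 in A2QK, against 6.05 and 5.66 in QK, a difference of -1.14 ± 0.22 (adjusted p = 0.00887). The contrast of both differences was 2.64 ± 0.31 (adjusted p = 0.000866), so the change in the A2QK-QK difference was itself larger than the spread between arrays. Heated WT had more than either, 10.21 and 10.47.

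The members of the co-chaperone list that did not pass were HOP1, P23-1, FES1B, FES1C and AT1G56300. For FES1B and AT1G56300 the QK arrays were far apart: AT1G56300 had 8.85 and 8.76 in heated A2QK, against 8.06 and 4.50 in heated QK (adjusted p = 0.447). Those 8 of 13 were called in every fit that left out a single array.

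Of the larger chaperones few were measured on probe sets with a single gene. HSC70-3 (AT3G09440), a cytosolic HSP70, had 11.43 and 11.40 in heated A2QK, against 8.46 and 9.73 in heated QK (2.32 ± 0.68, adjusted p = 0.047). CPN60B2 (AT3G13470), a subunit of the chloroplast chaperonin, had 9.70 and 9.89 in heated A2QK and 7.59 and 8.26 in heated QK (1.87 ± 0.51, adjusted p = 0.0332). Both calls sat near the threshold: without the first heated QK array the adjusted p were 0.27 for HSC70-3 and 0.19 for CPN60B2. HSC70-2, HSP70-17, CPN60B3 and CPN60B4 did not pass. No listed HSP90, HSP100 or heat shock factor gene was identified on a probe set with a single gene, and unlisted probe sets were tested without names.

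HSA32 (AT4G21320), needed for the long-lasting memory of an earlier heat treatment, had 9.38 and 9.18 in heated A2QK, against 5.72 and 5.52 in heated QK (3.66 ± 0.28, adjusted p = 7.77e-06, 12.6-fold). Here both groups were tight and clearly apart. At 22 °C the difference was 2.25 (adjusted p = 0.000869). The HIKESHI-like gene AT1G66080, whose human relative carries HSP70 into the nucleus, had 7.35 and 7.08 in heated A2QK and 3.90 and 4.49 in heated QK (3.02 ± 0.27, adjusted p = 2.92e-05). Heated WT had 9.87 and 9.76, above both A2QK arrays. ZAT10, a zinc finger repressor of the stress response, differed by 0.08 (adjusted p = 0.965).

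**Figure D2:**
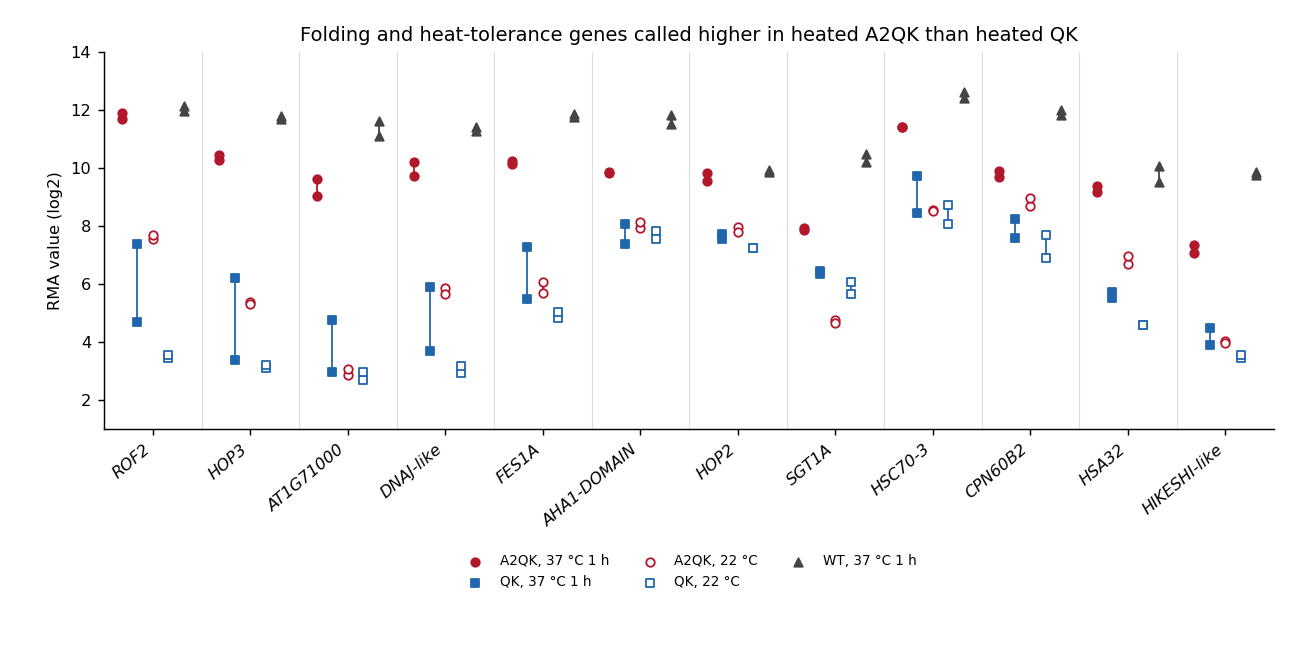
Log2 expression on each array of the 12 called genes for co-chaperones, HSP70, chaperonin, HSA32 and the HIKESHI-like protein, with A2QK and QK at 37 °C, A2QK and QK at 22 °C, and WT at 37 °C, 1 point per array. Both heated A2QK points lie above both heated QK points in all 12 genes, and for SGT1A the order of A2QK and QK is opposite at 22 °C.

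Among all probe sets with a single gene, the 20 with the largest positive difference held 7 small heat shock proteins and 4 co-chaperones, and the rest were mostly loci with no symbol in the annotation. AT1G21550 had 10.94 and 10.67 in heated A2QK, against 3.25 and 4.04 in heated QK (7.16 ± 0.38, adjusted p = 7.21e-07). AT5G53680 had 9.75 and 9.38 in heated A2QK and 2.48 and 3.07 in heated QK (6.79 ± 0.23, adjusted p = 2.8e-08). Unlike most small heat shock protein genes, these had QK arrays within 1 of each other, and both were raised by heat in WT, to 10.65 and 10.20 and to 8.35 and 8.17. AT1G72660 (5.12 ± 0.25), AT5G05220 (4.98 ± 0.28), AT5G47610 (4.88 ± 0.63), AT5G12110 (4.86 ± 0.82) and AT4G23493 (4.41 ± 0.27) completed those that rose with heat in WT.

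How far the difference covered the heat response of WT was counted on arrays that the A2QK and QK comparison did not use. Heat raised 500 probe sets (2.20%) at least 2-fold in WT. Of these, 265 (53%) were higher in heated A2QK than in heated QK, 51 (10.2%) were lower and 184 were not called, with a median difference of 0.94. The 265 made up 18.8% of all probe sets higher in A2QK. Heat lowered 664 probe sets (2.92%) at least 2-fold in WT, and 37 of these were higher and 73 (11%) lower in heated A2QK, with a median of -0.17. The overlap therefore lay mostly on the side of genes that heat raised.

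Some strong WT responses stayed low in both lines. AT1G62730 had 8.79 and 8.75 in heated WT and 4.56 and 3.65 in WT at 22 °C, but 5.32 and 5.36 in heated A2QK and 5.28 and 5.36 in heated QK (adjusted p = 0.979). AT4G18450 had 6.63 and 5.86 in heated WT, but 2.29 and 2.44 in heated A2QK and 2.66 and 2.32 in heated QK (adjusted p = 0.811). Both were chosen after their values were seen.

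**Figure D3:**
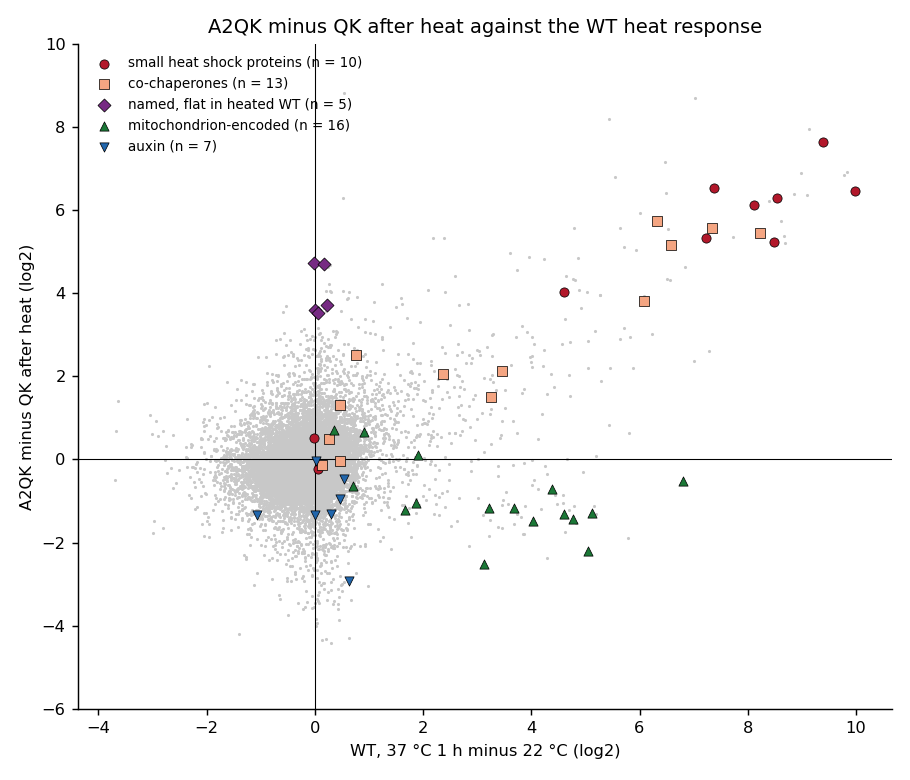
The A2QK minus QK difference after heat (log2, vertical axis) against the heat response of WT (log2, horizontal axis) for all 22746 probe sets, with gene groups coloured. Of the small heat shock proteins and of the co-chaperones, 8 each lie in the upper right, most mitochondrion-encoded transcripts lie at the lower right, and 5 named genes not called for heat in WT lie high near the vertical line at 0.

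A second set of genes was higher in heated A2QK without a called heat change in WT. Most probe sets lacked such a call, since 3.31% rose and 5.33% fell in heated WT. The share of all probe sets within the limit used below is not given here, so no excess is claimed. At least 4-fold higher in heated A2QK than in heated QK were 315 probe sets. Of these, 139 were among the 500 that rose at least 2-fold in heated WT, and 117 were not called in WT with a change within 0.5. Of the 315, 119 were also higher at 22 °C, and at 182 the contrast of both differences was called larger after heat. The 117 were mixed in this respect. AT1G73600 differed by 3.05 after heat and 4.76 at 22 °C, and AT3G23450 by 2.71 and 2.56. Both were also higher in heated hsfa2 than in heated WT, by 1.59 and 2.21. AT2G32630 had 7.38 and 7.27 in heated A2QK, against 2.76 and 2.45 in heated QK (4.72 ± 0.17, adjusted p = 4.05e-08). It had 2.70 and 2.71 in heated WT, 2.79 and 2.67 in WT at 22 °C, and 3.41 and 3.02 in A2QK at 22 °C, so A2QK at 37 °C stood alone among these groups. AT3G61090 showed the same order, with 7.69 and 7.87 in heated A2QK, against 3.09 and 3.08 in heated QK (4.70 ± 0.29, adjusted p = 1.51e-06), and 3.26 and 3.19 in heated WT.

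AT4G31615 (REM35, of the reproductive meristem family of DNA-binding proteins) had 6.25 and 6.28 in heated A2QK and 2.65 and 2.45 in heated QK (3.71 ± 0.18, adjusted p = 2.99e-07), with 2.54 and 2.63 in heated WT. AT1G15940 had 7.98 and 7.89 in heated A2QK, against 4.30 and 4.54 in heated QK (3.52 ± 0.15, adjusted p = 1.44e-07). AT4G37220 had 10.19 and 10.12 in heated A2QK, but its QK arrays, at 7.61 and 5.51, were far apart (3.60 ± 0.72, adjusted p = 0.00681), and without the second of them the adjusted p was 0.0547. For AT2G32630, AT3G61090, AT1G15940 and AT4G37220 the 22 °C difference was not called, and for all 5 genes the contrast of the 37 °C and 22 °C differences was called, between 2.79 for AT4G31615 and 5.05 for AT4G37220. AT4G37220 was named only by the rule that ranked genes by this contrast, so its large contrast follows from that choice.

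Several genes with the smallest adjusted p rose in A2QK well beyond their heat change in WT. AT5G16140 had 10.25 and 10.19 in heated A2QK, against 6.26 and 6.11 in heated QK (4.03 ± 0.14, adjusted p = 2.8e-08), and 6.48 and 6.26 in heated WT. AT5G63690 had 7.75 and 7.80 in heated A2QK, against 4.38 and 4.42 in heated QK (3.38 ± 0.15, adjusted p = 1.84e-07), and 4.09 and 4.19 in heated WT. In both, A2QK was above every QK and WT array. AT3G07150 was different, since its 7.31 and 7.28 in heated A2QK (3.96 ± 0.14 above QK, adjusted p = 4.05e-08) lay below the 8.16 and 8.43 of heated WT.

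The difference after heat was compared with the one at 22 °C, whose means come from other arrays of the same lines. The calls of both share 1 estimate of spread per probe set and are not independent. Of the 1176 probe sets higher in A2QK at 22 °C, 423 (36%) were also higher after heat and 6 were lower, and the 423 were 30% of all those higher after heat. Of the 892 lower at 22 °C, 475 (53.3%) were also lower after heat and 16 were higher, and the 475 were 34.1% of all those lower. Over all probe sets the correlation of both differences was 0.613, a description across probe sets of the same 2 lines. The contrast of both differences was larger after heat at 373 probe sets (1.64%) and lower at 86 (0.378%).

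**Figure D4:**
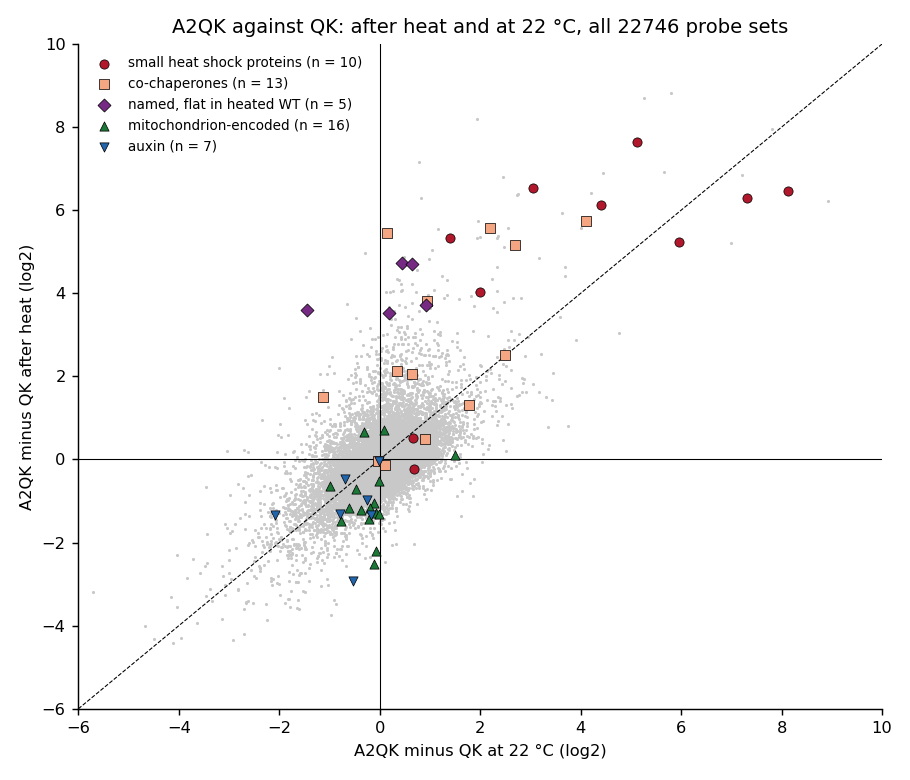
The A2QK minus QK difference after heat (log2, vertical axis) against the same difference at 22 °C (log2, horizontal axis) for all 22746 probe sets, with gene groups coloured and a dashed line where both are equal. Small heat shock proteins lie on both sides of the line, some of them, such as HSP17.4III and HSP23.5, well above it. The 5 named genes not called for heat in WT lie well above the line, and most mitochondrion-encoded transcripts lie below 0 after heat and near 0 at 22 °C.

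Transcripts encoded in the mitochondrion formed a group on the lower side. Of 16 measured, 8 were lower in heated A2QK, against 6.12% of all probe sets, and none was higher. The median was -1.17, although heat raised 14 of the 16 in WT. Genes for subunits of respiratory complex I were among them: nad1 had 6.94 and 7.33 in heated A2QK, against 8.93 and 9.74 in heated QK (-2.20 ± 0.29, adjusted p = 0.000463). These are values of the brightest of 7 nad1 probe sets, of which 3 were lower and 4 were not called. The next brightest had 7.15 and 6.80 in heated A2QK, against 6.93 and 7.82 in heated QK (-0.40 ± 0.26, adjusted p = 0.384), with overlapping groups. The first one had 3.65 and 4.18 in A2QK at 22 °C and 4.14 and 3.84 in QK at 22 °C, so both lines had more after heat and A2QK had less of it than QK. nad9 had 7.09 and 7.06 in heated A2QK and 8.34 and 8.45 in heated QK (-1.32 ± 0.14, adjusted p = 0.000108).

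The intron maturase matR had 3.86 and 4.29 in heated A2QK, against 6.67 and 6.52 in heated QK (-2.52 ± 0.18, adjusted p = 5.58e-06). cox1, a subunit of cytochrome c oxidase, had 8.65 and 8.84 in heated A2QK and 10.28 and 10.18 in heated QK (-1.48 ± 0.21, adjusted p = 0.000679). For nad1, nad9 and matR the contrast of the 37 °C and 22 °C differences was also called, at -2.12, -1.31 and -2.41, and for cox1 it was not (-0.71, adjusted p = 0.321). nad4L (-1.30) and the cytochrome c maturation genes ccb203 (-1.17), ccb206 (-1.04) and ccb452 (-1.18) were lower too, and the 3 ccb calls were lost in some fits that left out 1 array. With the hsfa2 difference subtracted 4 of the 16 were called. nad6, with 9.75 and 9.63 in heated A2QK and 10.33 and 10.09 in heated QK, did not pass (adjusted p = 0.112). Other complex I genes did not pass either: nad4 (-0.64) and the brightest nad5 probe set (-1.43), although another nad5 probe set was called (-1.31). Differences of nad2 (0.71), nad7 (0.67) and ccb382 (0.12) were positive and not called, so the group was not lower throughout.

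Heated hsfa2 gave lower values than heated WT for part of this group: nad1 by -1.18 ± 0.29 (adjusted p = 0.0311) and matR by -1.38 ± 0.18 (adjusted p = 0.00197), but not nad9 (-0.09, adjusted p = 0.741) or cox1 (0.23, adjusted p = 0.547). Chromosome 2 carries a large nuclear copy of mitochondrial DNA, and probes on its loci may also read mitochondrial transcripts. Of 66 measured loci with AT2G07 numbers, 16 were lower and 1 was higher in heated A2QK, against 6.12% and 6.20% of all probe sets. Their median was -0.09, and heat raised 19 in WT. Of the 258 single genes that heat raised at least 2-fold in WT, 24 were lower in heated A2QK; 8 of these were mitochondrion-encoded, 13 had AT2G07 numbers and 3 were others.

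Transcripts encoded in the plastid mostly did not pass the test. Of 69 measured, 1 was higher and 8 were lower, against 6.20% and 6.12% of all probe sets, with a median of 0.13. Both counts depended on the fit. With a block within WT and QK, 25 were higher and 21 lower, without the second heated QK array 4 were higher and 6 lower, and with the hsfa2 difference subtracted none was higher and 4 were lower. Array weights gave 2 higher and 14 lower. The lower ones included neighbours in the plastid genome. psaC, of photosystem I, had 4.04 and 3.62 in heated A2QK, against 8.14 and 8.36 in heated QK (-4.42 ± 0.40, adjusted p = 3.06e-05), the largest fall among probe sets with a single gene. ndhE, of the plastid NDH complex and encoded beside it, had 4.55 and 4.78 in heated A2QK and 7.29 and 8.08 in heated QK (-3.02 ± 0.27, adjusted p = 3.01e-05), and ndhG (-1.49) and ndhD (-2.43) of the same operon were lower as well. The 22 °C differences were of similar size, -4.12 for psaC and -3.08 for ndhE. Heated hsfa2 was also lower than heated WT for both, psaC by -3.60 (adjusted p = 0.00091) and ndhE by -1.20 (adjusted p = 0.0245), and with the hsfa2 difference subtracted psaC was no longer called (-0.82, adjusted p = 0.513). rpoA, for the plastid RNA polymerase, was the higher one (1.63 ± 0.42, adjusted p = 0.0261), and no plastid gene was called higher without the first heated QK array, without either heated A2QK array, with the 8 A2QK and QK arrays alone or with the hsfa2 difference subtracted.

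Auxin-related genes were lower in heated A2QK: 4 of 7 measured members of a 20-gene list, against 6.12% of all probe sets. None was higher, and the median was -1.31. IAA29 (AT4G32280), a repressor of auxin-responsive transcription, had 4.33 and 4.12 in heated A2QK, against 7.05 and 7.25 in heated QK (-2.92 ± 0.16, adjusted p = 8.83e-07). At 22 °C it had 3.88 and 3.87 in A2QK and 4.54 and 4.27 in QK, and the contrast of both differences was -2.40 ± 0.23 (adjusted p = 0.000272), so the gap widened with heat. WAG2 (AT3G14370), a kinase acting on auxin transport, had 5.20 and 5.18 in heated A2QK and 6.59 and 6.49 in heated QK (-1.35 ± 0.20, adjusted p = 0.00108). The lateral-root regulators LBD16 (-1.31 ± 0.31, adjusted p = 0.0163) and LBD29 (-0.96 ± 0.19, adjusted p = 0.00668) were lower too, GH3.5 narrowly missed (-1.34 ± 0.40, adjusted p = 0.0524), and GH3.1 and GH3.3 did not pass.

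The auxin calls depended on single arrays. Without the second heated QK array, or the second heated A2QK array, 2 of 7 members were called. LBD16 lost its call without any single one of the 4 heated arrays. Heated hsfa2 was lower than heated WT for 3 of the 7, IAA29 by -2.47 ± 0.16 (adjusted p = 7.67e-05), and with the hsfa2 difference subtracted none of the 7 was called, IAA29 being at -0.45 (adjusted p = 0.344). IAGLU (AT4G15550), which attaches glucose to the auxin indole-3-acetic acid and was on no list, had 5.48 and 5.22 in heated A2QK, against 8.41 and 8.40 in heated QK (-3.05 ± 0.43, adjusted p = 0.000773). With the hsfa2 difference subtracted it was at -0.76 (adjusted p = 0.59) and no longer called.

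Of 7 cell wall genes measured, 2 were lower and none was higher (median -0.89), where 6.12% of all probe sets were lower. XTH33 (AT1G10550), which remodels xyloglucan, had 5.94 and 6.01 in heated A2QK and 8.44 and 9.23 in heated QK (-2.86 ± 0.28, adjusted p = 4.64e-05), and XTH16 had 8.54 and 8.36 in heated A2QK and 10.34 and 9.75 in heated QK (-1.60 ± 0.22, adjusted p = 0.000644). Both were also lower in A2QK at 22 °C. With the hsfa2 difference subtracted XTH33 was still called (-1.92, adjusted p = 0.0156) and XTH16 was not (-1.07, adjusted p = 0.0826). Of 4 antioxidant genes, 1 was lower, against 6.12% of all probe sets. The lower one, CCS (AT1G12520), the copper chaperone of superoxide dismutase, had 5.90 and 6.02 in heated A2QK, against 8.83 and 8.60 in heated QK (-2.75 ± 0.23, adjusted p = 1.48e-05). It was not called between heated and unheated WT (adjusted p = 0.445). With the hsfa2 difference subtracted CCS was at -1.85 and still called (adjusted p = 0.00667).

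**Figure D5:**
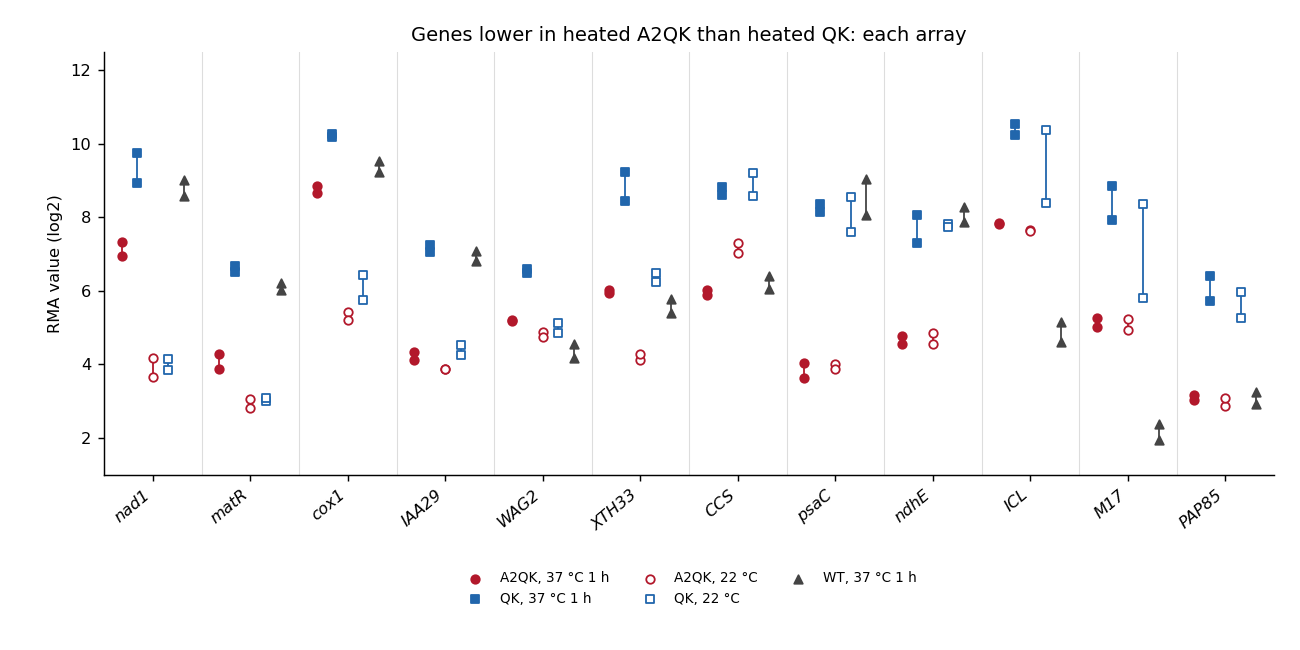
Log2 expression on each array of 12 genes lower in heated A2QK than in heated QK, from the mitochondrion, auxin, cell wall, antioxidant, plastid and seed-stage groups, with A2QK and QK at 37 °C, A2QK and QK at 22 °C, and WT at 37 °C, 1 point per array. The points of nad1, matR and cox1 are higher at 37 °C than at 22 °C in both A2QK and QK, psaC and ndhE are low in A2QK at both temperatures, and ICL, M17 and PAP85 are higher in heated QK than in heated WT.

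Several genes usually active in seeds and in early seedlings were lower in heated A2QK than in heated QK. The fixed seed list had no measured member, so 8 such genes were picked after values were seen and get no test as a group. Of the 8, 5 were lower, where 6.12% of all probe sets were, and none was higher. In all 8 both heated QK arrays were above both heated WT arrays, and the share of all probe sets with that order is not given here. Because values guided the choice, these counts say nothing about seed-stage genes as a class. ICL (AT3G21720), isocitrate lyase of the glyoxylate cycle that uses stored oil, had 7.86 and 7.83 in heated A2QK, against 10.23 and 10.54 in heated QK (-2.54 ± 0.50, adjusted p = 0.00595), and 4.60 and 5.16 in heated WT. PAP85 (AT3G22640), a vicilin-like storage protein, had 3.03 and 3.18 in heated A2QK and 5.73 and 6.40 in heated QK (-2.96 ± 0.31, adjusted p = 8.33e-05), with 3.25 and 2.92 in heated WT. M17 (AT2G41260), a late embryogenesis gene, had 5.02 and 5.27 in heated A2QK and 7.93 and 8.86 in heated QK (-3.25 ± 0.60, adjusted p = 0.00426). Of the 8 genes, 4 were lower in A2QK at 22 °C too. How far such transcripts bear on the other lower calls was not tested.

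At least 4-fold lower in heated A2QK were 159 probe sets. Of these, 89 were lower at 22 °C as well and 46 were lower in heated hsfa2 than in heated WT. Not called for heat in WT, with a change within 0.5, were 116, and most of all probe sets were not called there either. AT5G50335 had 5.12 and 4.69 in heated A2QK, against 8.68 and 8.85 in heated QK (-3.86 ± 0.17, adjusted p = 1.52e-07), and was lower in heated hsfa2 than in heated WT by -2.12 (adjusted p = 0.000139). AT2G15010 had 4.42 and 4.44 in heated A2QK and 8.02 and 7.77 in heated QK (-3.47 ± 0.52, adjusted p = 0.00109), with 2.97 and 2.94 in heated WT. AT1G54870 had 4.36 and 4.46 in heated A2QK and 7.37 and 8.35 in heated QK (-3.45 ± 0.45, adjusted p = 0.000465), with 2.33 and 2.11 in heated WT. For these last genes QK was the high group and WT the low one. LCR67 (AT1G75830), of the plant defensin family, had 2.80 and 3.14 in heated A2QK, against 6.05 and 6.62 in heated QK (-3.36 ± 0.42, adjusted p = 0.000347). ZW9 (-4.21 ± 1.03, adjusted p = 0.0201) lost its call without any single heated A2QK or QK array.

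The UDP-glycosyltransferase family, which attaches sugars to hormones and secondary metabolites, had 6 higher and 5 lower of 47 measured, where 6.20% and 6.12% of all probe sets were called. In fits without 1 array the counts ran from 3 to 6 higher and from 2 to 5 lower, and with dim probe sets left out 1 was higher and 3 were lower. UGT73C1 (AT2G36750) had 7.20 and 7.37 in heated A2QK, against 3.36 and 3.41 in heated QK (3.90 ± 0.27, adjusted p = 3.22e-06), and 3.64 and 3.19 in heated WT. UGT71C2 was higher by 2.67 ± 0.25 (adjusted p = 3.23e-05) and UGT74F1, which glucosylates salicylic acid, by 1.82 ± 0.17 (adjusted p = 3.49e-05). Lower were the cytokinin glucosyltransferases UGT76C1, with 5.18 and 5.16 in heated A2QK and 5.92 and 6.42 in heated QK (adjusted p = 0.0468), and UGT76C2 (-1.67 ± 0.47, adjusted p = 0.0378). Among cytochromes P450, 2 were higher and 2 lower of 26, close to the shares over all probe sets, and without the first heated QK array 1 was higher and none was lower.

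Other groups showed few calls. Of 6 endoplasmic reticulum folding genes none was called by limma (median -0.27, 1 at an unadjusted p under 0.05): the calreticulin CRT2 had 10.83 and 10.77 in heated A2QK and 11.25 and 11.90 in heated QK (adjusted p = 0.198). Of 4 abscisic acid and cold genes, the chloroplast cold-protection gene COR15A was higher, with 5.94 and 6.02 in heated A2QK and 4.44 and 4.12 in heated QK (1.70 ± 0.40, adjusted p = 0.0165). It was also higher in heated hsfa2 than in heated WT, by 6.61 ± 0.40 (adjusted p = 5.83e-05), its call was lost without the second heated QK array (adjusted p = 0.0918) or either heated A2QK array, and with the hsfa2 difference subtracted it turned to -4.91. No call was made among 4 nuclear photosynthesis genes (median 0.17), 3 root markers (median -0.39) and 3 reference genes (median 0.03), of which 0, 0 and 1 had an unadjusted p under 0.05, nor among the few jasmonate, salicylic acid, cell cycle, flavonoid and clock genes measured. LHCB4.1, a light-harvesting protein, had 12.34 and 12.30 in heated A2QK, against 12.20 and 12.30 in heated QK, and the root and endoplasmic reticulum body gene PYK10 had 11.55 and 11.31 in heated A2QK, against 11.27 and 11.03 in heated QK, so shoot and root RNA were present in all 4 samples.

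Finally, the A2QK and QK difference was set beside that of hsfa2 and WT, whose means come from other arrays. The calls of both again share 1 estimate of spread per probe set. After heat, 950 probe sets (4.18%) were higher and 872 (3.83%) lower in hsfa2 than in WT. Of the 872, 341 (39.1%) were lower in heated A2QK than in heated QK and 65 were higher, and the 341 were 24.5% of all those lower in A2QK. Of the 950, 170 (17.9%) were higher in heated A2QK and 10 were lower, and the 170 were 12.1% of all those higher. At 22 °C, where 905 (3.98%) were higher and 891 (3.92%) lower in hsfa2 than in WT, 187 of the 905 were higher and 351 (39.4%) of the 891 were lower in heated A2QK. Among probe sets called in both comparisons the same sign was thus the larger count, and A2QK has added HSFA2 while hsfa2 lacks it. The arrays of hsfa2 and A2QK were the tighter pairs at both temperatures, as given above for heat, and their part in the shared sign was not tested. Array deviations (first minus second array of a group) were correlated over probe sets at 0.53 to 0.62 between a WT and a QK group. Between the 2 WT groups the correlation was 0.79, and for any pair with an hsfa2 or A2QK group no more than 0.15. The labels name no batch. A processing set that WT and QK arrays shared, and that hsfa2 and A2QK arrays did not, would enter both differences and cannot be told apart from genotype here. With the hsfa2 difference subtracted, 758 probe sets were higher and 304 lower in heated A2QK, the co-chaperone count stayed at 8 and the small heat shock protein count was 6.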

How the data were processed

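Per the labels, total RNA of whole seedlings was labelled and hybridised to Affymetrix arrays. The authors deposited log2 values made with RMA, as their processing notes in the labels name it, 1 per probe set; its version, the chip definition and the arrays it was run on are not stated. RMA sets the arrays to similar distributions, so differences are relative to the whole array. From 22810 probe sets, 64 controls were left out. Of 22746 tested, 13513 had a single gene in the platform annotation (13436 matched by Entrez gene ID to RefSeq, TAIR10.1, 77 not), 503 had several and 8730 were unlisted and are not named. Mitochondrion-encoded and plastid-encoded genes were taken from the RefSeq chromosome or, unmatched, from the mitochondrial symbol.

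Group means of all 8 groups were fitted over 16 arrays with limma 3.58.1 (R 4.3.3, lmFit and eBayes, 8 residual and 3.37 prior degrees of freedom), and p-values were Benjamini-Hochberg adjusted over all probe sets, with a threshold of 0.05. Contrasts were A2QK minus QK after heat and at 22 °C, their difference, WT heat minus 22 °C, and hsfa2 minus WT. The scripts were tested on simulated data. Of 351 genes in 21 lists, 77 were identified on a probe set with a single gene, which is what measured means here. Gene families, selected by symbol, and AT2G07 loci were added. Genes were named by rule: the 20 largest differences each way among calls without array overlap, the 10 smallest p, the 10 largest changes of difference each way, and list members; where a gene has several probe sets, the brightest stands for it. Lists and members were chosen with earlier results of these data known. No table of sequences was used here. The number of arrays limits the precision. Alternatives were the arrays fitted, a replicate block, scaling, a filter on dim probe sets, variance models, array weights, a fold threshold and leaving out each array.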

Additional observations from a re-analysis of the deposited data

Results flagged for a closer look

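For 35 genes of the lists and rules used the A2QK minus QK difference after heat itself differed from the one at 22 °C. The test was the limma contrast of both differences, Benjamini-Hochberg adjusted over all probe sets. Values are log2, heat difference minus 22 °C difference. A naming rule ranked genes by this same contrast, so the selection partly fixed the count of 35. Over all probe sets the contrast was larger after heat at 373 (1.64%) and lower at 86 (0.378%). Larger after heat were AT1G21550 by 6.39 ± 0.54 (SE, adjusted p = 0.000151), AT1G71000 by 5.32 ± 0.64, AT5G05220 by 5.28 ± 0.40, AT4G37220 by 5.05 ± 1.01, AT5G47610 by 4.41 ± 0.88, AT4G33905 by 4.39 ± 0.38, AT5G53680 by 4.33 ± 0.33, AT2G32630 by 4.28 ± 0.25, AT3G61090 by 4.06 ± 0.40 and AT4G02550 by 4.02 ± 0.69. Next were AT1G15940 by 3.34 ± 0.21, AT3G07150 by 3.00 ± 0.20, AT4G31615 by 2.79 ± 0.25, AT5G63690 by 2.73 ± 0.21, AT1G67300 by 2.18 ± 0.22 and AT5G16140 by 2.12 ± 0.20. Among glycosyltransferase and cytochrome P450 genes they were UGT73C1 by 2.62 ± 0.38, UGT71C2 by 1.68 ± 0.35, CYP71B5 by 1.37 ± 0.31 and UGT74F1 by 1.12 ± 0.24. AT1G72660 was larger after heat by 2.66 ± 0.35, SGT1A by 2.64 ± 0.31, the HIKESHI-like gene by 2.51 ± 0.39, the AHA1-domain gene by 1.78 ± 0.38 and HOP2 by 1.42 ± 0.21. BZIP28, a transcription factor of endoplasmic reticulum stress, had a contrast of 1.17 ± 0.25 (adjusted p = 0.0357), with differences of 0.29 after heat, which was not called, and -0.88 at 22 °C. More negative after heat were AT5G50335 by -1.62 ± 0.24, AT5G03230 by -1.99 ± 0.42, AT2G33710 by -1.88 ± 0.36, IAA29 by -2.40 ± 0.23, UGT73C7 by -1.20 ± 0.23 and the mitochondrion-encoded matR by -2.41 ± 0.26, nad1 by -2.12 ± 0.41 and nad9 by -1.31 ± 0.20. GSTU27, a glutathione transferase, had a contrast of -1.16 ± 0.26 (adjusted p = 0.0487), with differences of -0.56 after heat and 0.60 at 22 °C. Adjusted p-values ran from 1.71e-05 for AT2G32630 to 0.0487.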

How the results depend on the processing

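The total of 2803 calls (1410 higher, 1393 lower) was 1819 with the 4 heated arrays alone (823 lower) and 1615 with at least a 2-fold difference (891 and 724; 1036 at 22 °C, against 2068). With array medians set equal it was 2704, split 1649 higher and 1055 lower. Array weights gave 703 calls for the change of difference with heat, against 459. Leaving out 1 array gave 1334 to 3128 in total, 840 to 1520 higher, 494 to 1608 lower, 527 to 2467 at 22 °C, 211 to 549 for the change of difference and 213 to 274 for probe sets raised in WT and higher in A2QK (265 with all arrays). At 22 °C the totals were 527 and 637 without either A2QK array and 1372 without the second QK array, and the change of difference had 211 to 258 calls without any one A2QK array. The labels' numbers did not pair heated A2QK with heated QK (correlation of array deviations 0.0211); a replicate block over all arrays gave 3412 calls (1617 and 1795), and over the 4 heated arrays 1617 (884 and 733). Chosen after seeing the data, a block within WT and QK alone, whose numbers deviated together (0.53 to 0.79), gave 5164 (2323 and 2841; 4674 at 22 °C; 1300 for the change), and subtracting the hsfa2 difference gave 1062 (758 and 304), where AT1G13670 turned to 0.054 (adjusted p = 0.974) and COR15A to -4.91 (adjusted p = 0.000418). Causes were not tested.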
